A study of Mus musculus with 6 samples.

Results

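The genes described here encode the enzymes that make and break down the cyclic nucleotides cAMP and cGMP, and the RGS proteins that switch off the G protein signals acting upstream of them. They were taken by name from the deposited gene table, as every adenylyl cyclase (Adcy followed by a digit), guanylyl cyclase (Gucy followed by a digit), phosphodiesterase (Pde with a number and a letter from a to d) and RGS gene (Rgs followed by a digit). The rule found 60 of the 21286 genes in the table: 10 adenylyl cyclases, 8 guanylyl cyclase genes, 20 phosphodiesterases and 22 RGS genes, among them Rgs7bp and Rgs9bp, which encode binding partners of RGS proteins and not RGS proteins. RNA had been sequenced from the lateral ganglionic eminence (LGE), the embryonic forebrain region that gives rise to striatal projection neurons and olfactory bulb interneurons, at embryonic day 16.5. One group was 3 libraries from wild type littermates, and the other was 3 libraries from Dlx1/2 -/- mutants, which lack a pair of homeobox transcription factors of the ganglionic eminences. All 6 shared a mixed background of C57BL/6J, 129S6 and CD1. The mutation is not limited to a cell type by any driver that the labels name, and the labels do not say whether a library came from 1 embryo or from pooled tissue, so the spread between libraries may be in part technical.

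Cyclic nucleotides carry signals from receptors at the cell surface into the cell. Adenylyl cyclases in the plasma membrane make cAMP under the control of stimulatory and inhibitory G proteins, and a soluble guanylyl cyclase built from an alpha and a beta subunit makes cGMP when nitric oxide binds it. Phosphodiesterases hydrolyse cAMP, cGMP or both, and RGS proteins shorten G protein signals by speeding up GTP hydrolysis on the G protein alpha subunit. Striatal projection neurons of the adult brain are rich in particular members of each family, such as Adcy5, Pde10a, Pde1b, Pde7b, Rgs9 and the soluble guanylyl cyclase, through which dopamine, adenosine and nitric oxide act on these cells.

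Total counts were 10711630 to 16588359 per library. The targeted genes were at 857.9 ± 35.7 CPM in wild type and 122.1 ± 14.4 CPM in the mutant for Dlx1, and at 436.3 ± 29.8 and 16.8 ± 1.68 CPM for Dlx2 (mean ± SD, n = 3 each), and no mutant library reached a wild type library. CPM here are a gene's reads relative to the scaled library total (the usual CPM scale) after scaling between libraries. Testing covered 15326 genes, and mutant libraries were above wild type for 1715 and below it for 1958, at an adjusted p below 0.05 in edgeR's quasi-likelihood test, from which all adjusted p-values below come. A gene is called where it passed that threshold. The tissue is bulk, so fewer cells of a type and less RNA per cell cannot be told apart in any value that follows. The 12 striatal neuron markers looked at, led by Bcl11b, Meis2 and Ebf1, were present in every wild type library, with a summed level of 3307 to 3454 CPM, against 1227 to 1361 CPM in the mutant, where 11 of the 12 were lower.

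Of the 60 members, 49 had enough reads to be tested, and 28 of these were called, 18 lower and 10 higher in the mutant. Over all genes tested, 24.0% were called, 12.8% lower and 11.2% higher. Among the members that were called, 10 fell by at least 2-fold and 1 rose by at least 2-fold, where 4.04% and 2.84% of all genes did (6.88% in either direction). The median log2 fold change of the tested members was −0.27, beside 0.00 for all genes tested, and their median size of change was 0.53, beside 0.19. Wild type and mutant libraries did not overlap in 30 of the 49 tested members, beside 41.9% of all genes. The falls reached much further than the rises, from −3.26 for Pde7b and Gucy1a3 to 1.16 for Rgs8 on the log2 scale.

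**Figure D1:**
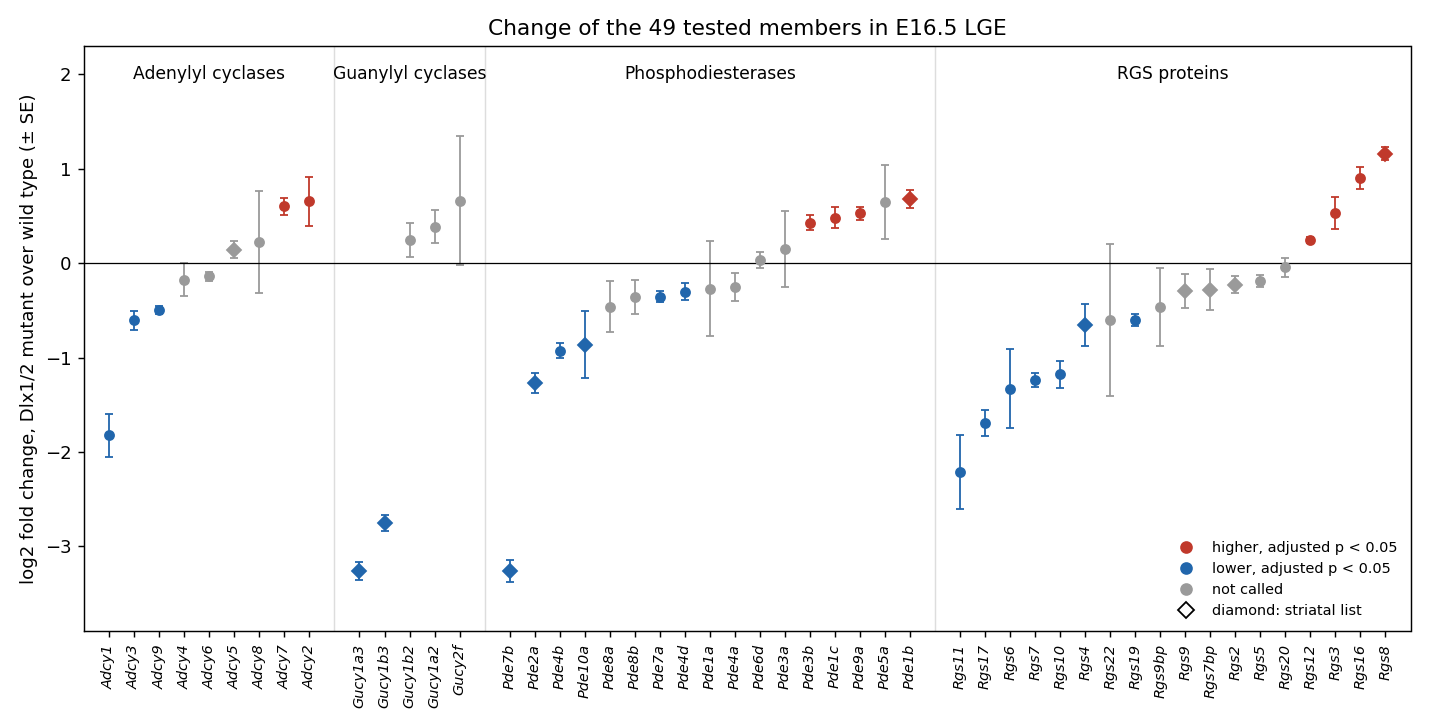
Log2 fold change of each of the 49 tested members, mutant over wild type, with the SE from the spread between libraries (n = 3 per group), in order within each family. Blue points were lower and red points higher at an adjusted p below 0.05, grey points were not called, and diamonds mark the striatal list; Gucy1a3, Gucy1b3 and Pde7b lie lowest at −3.26, −2.75 and −3.26, and Rgs8 highest at 1.16.

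Both main subunits of the soluble guanylyl cyclase, the nitric oxide receptor, were among the 3 members that fell furthest. Gucy1a3, its main alpha subunit (Gucy1a1 in RefSeq; GRCm38 chromosome 3, 82092427 to 82145789, minus strand), stood at 317.1, 371.3 and 307.5 CPM in the wild type libraries and at 35.4, 32.3 and 36.0 CPM in the mutant libraries. All 3 mutant values were far below the lowest wild type value. The fall was 9.60-fold, with a log2 fold change of −3.26 ± 0.097 (SE) and adjusted p = 4.73e-07. Gucy1b3, the beta subunit that pairs with it (Gucy1b1 in RefSeq; chromosome 3, 82032006 to 82074689, minus strand), was at 149.5, 173.7 and 147.0 CPM in wild type and at 24.3, 22.0 and 23.6 CPM in the mutant. It fell 6.74-fold, by 2.75 ± 0.088 on the log2 scale with adjusted p = 8.81e-07, again with no overlap between the groups. The genes of the 2 subunits are neighbours in the same orientation, with 17.7 kb between them. Their ratio in FPKM, a level per length of transcript, was close in all libraries of a group. Gucy1a3 stood at 1.14 ± 0.0121 times Gucy1b3 in wild type and at 0.799 ± 0.020 times in the mutant (n = 3 each).

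The other subunits were not called. Gucy1a2, another alpha subunit, was at 12.8, 11.9 and 17.1 CPM in wild type and at 19.1, 19.1 and 16.6 CPM in the mutant, and was not called (adjusted p = 0.0987). Without wild type replicate 3, it was called higher, with a log2 fold change of 0.57 and adjusted p = 0.0149. Gucy1b2, a further beta subunit, was at 18.9, 13.9 and 12.4 CPM and at 17.9, 18.03 and 17.2 CPM (adjusted p = 0.284). It was called higher, at 0.43 and adjusted p = 0.0218, without wild type replicate 1. In FPKM, Gucy1a3 made up 92.0% ± 2.07 of the summed alpha subunits in wild type and 48.0% ± 3.15 in the mutant, and Gucy1b3 made up 85.7% ± 3.20 and 43.1% ± 1.58 of the beta subunits. The summed alpha level was 33.1 ± 3.01 FPKM in wild type and 6.71 ± 0.255 in the mutant, and the beta level 31.2 ± 2.55 and 9.36 ± 0.245 FPKM. Among the receptor-type guanylyl cyclases, which respond to peptides or act in photoreceptors, Gucy2f was at 1.72 ± 1.07 and 2.69 ± 0.908 CPM and was not called (adjusted p = 0.365), while Gucy2c, Gucy2e and Gucy2g had too few reads to be tested.

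The promoters of the 3 members with the largest falls and of the member with the largest rise are shown here because these are the genes that the pattern turns on. Each sequence is the 250 bases before a RefSeq transcription start on GRCm38.p6, read 5′ to 3′ on the strand of the gene. Capitals mark TAATTA, the core bound by homeodomain factors of the Dlx type, and TGACG or its reverse complement CGTCA, the half-site of the cAMP response element. The first lies at chr3:82145651-82145900 on the minus strand and is the more upstream of 2 RefSeq starts.
Gucy1a3: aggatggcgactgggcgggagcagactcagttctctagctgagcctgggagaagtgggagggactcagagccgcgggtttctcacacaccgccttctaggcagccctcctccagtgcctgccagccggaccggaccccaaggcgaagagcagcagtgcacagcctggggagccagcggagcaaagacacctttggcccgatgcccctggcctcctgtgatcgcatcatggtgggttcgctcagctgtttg
The Gucy1b3 window lies at chr3:82074712-82074961 on the minus strand.
Gucy1b3: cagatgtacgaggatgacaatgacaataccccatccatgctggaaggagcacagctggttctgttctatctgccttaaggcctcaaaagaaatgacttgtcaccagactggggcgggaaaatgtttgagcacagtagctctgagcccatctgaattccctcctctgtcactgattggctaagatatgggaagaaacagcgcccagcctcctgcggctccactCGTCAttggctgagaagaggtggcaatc
The Pde7b window lies at chr10:20548329-20548578 on the minus strand, before a RefSeq start that is inside the longer GENCODE gene (20398004 to 20725078) and not at its 5′ end.
Pde7b: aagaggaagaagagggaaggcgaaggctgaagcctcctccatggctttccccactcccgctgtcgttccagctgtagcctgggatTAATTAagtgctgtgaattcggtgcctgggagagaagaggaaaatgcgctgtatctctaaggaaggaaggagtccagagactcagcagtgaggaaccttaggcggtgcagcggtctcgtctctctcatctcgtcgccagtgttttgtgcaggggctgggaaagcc
The Rgs8 window lies at chr1:153652787-153653036 on the plus strand and is the most upstream of 3 RefSeq starts.
Rgs8: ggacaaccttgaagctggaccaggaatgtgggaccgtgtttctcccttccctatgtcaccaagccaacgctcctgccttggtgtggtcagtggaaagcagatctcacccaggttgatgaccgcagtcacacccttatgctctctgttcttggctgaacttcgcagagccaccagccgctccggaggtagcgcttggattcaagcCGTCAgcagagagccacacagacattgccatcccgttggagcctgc
Pde7b held a TAATTA that begins 165 bases before the start, Gucy1b3 a CGTCA 28 bases and Rgs8 a CGTCA 46 bases before it, and the Gucy1a3 window held neither motif. Of the 60 members, 46 matched an entry of the RefSeq table, with 78 windows. TAATTA, which reads the same on both strands, occurred in 3 of these windows (3.85%), beside 4.84% of all 32851 windows of the table, and TGACG on either strand in 14 (17.9%), beside 17.8%. Among matched members, TAATTA stood in 1 of 16 that were lower and 0 of 8 that were higher, and TGACG in 4 of 16 and 3 of 8. These last counts are of genes with the motif in any window, and members had up to 5 windows. The shares of windows are therefore not their background, and a share over all genes was not computed. A match is a run of letters and not a measured binding site.

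Adenylyl cyclases moved in both directions, and the striatal form was not among those called. Of the 9 transmembrane cyclases, all tested, 3 were lower, 2 higher and 4 not called, beside 12.8% lower and 11.2% higher over all genes. Adcy1, a calcium-activated neuronal cyclase, was at 79.97, 106.5 and 120.6 CPM in wild type and at 34.1, 28.8 and 24.1 CPM in the mutant. The groups did not overlap, and the fall was 3.54-fold (log2 fold change −1.82 ± 0.227, adjusted p = 1.90e-04). Adcy3 fell 1.52-fold and Adcy9 1.41-fold (adjusted p = 0.00310 and 0.00470). Adcy3 shares exon bases with Cenpo on the opposite strand, which was at 20.7 ± 1.84 and 20.6 ± 0.297 CPM.

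Adcy5, the main cyclase of striatal projection neurons, was at 36.5, 41.7 and 44.7 CPM in wild type and at 46.9, 43.6 and 45.1 CPM in the mutant. The groups overlapped, and the log2 fold change of 0.14 ± 0.090 was not called (adjusted p = 0.280). Adcy6, its closest relative in the family, was not called either, at 165.6 ± 8.17 and 150.4 ± 4.46 CPM (adjusted p = 0.0970). Per length Adcy6 had the highest level of the cyclases in both groups, with 56.2% ± 4.51 of their summed FPKM in wild type and 58.3% ± 2.06 in the mutant. Adcy7, a G protein beta-gamma-sensitive cyclase, rose 1.52-fold (adjusted p = 0.00948). Adcy2 was at 7.08, 10.3 and 12.49 CPM in wild type and 17.5, 16.5 and 13.7 CPM in the mutant, and passed the test narrowly (log2 fold change 0.65, adjusted p = 0.0432). That call was lost with the replicate block (adjusted p = 0.0898) and without any single library except wild type replicate 3, at adjusted p of 0.0533 to 0.129. Adcy4 and Adcy8, at 2.59 ± 0.444 and 1.41 ± 0.849 CPM in wild type, were not called.

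**Figure D2:**
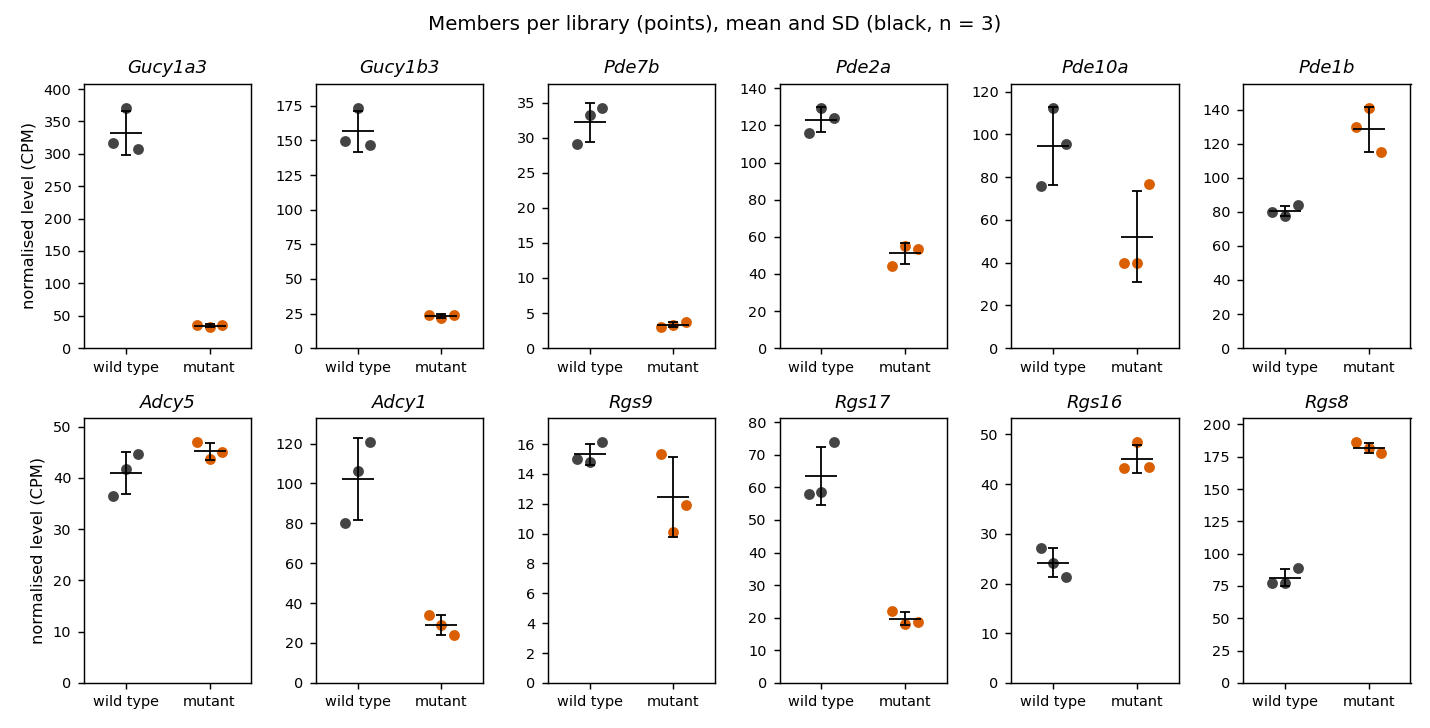
Level of 12 members in each library, in CPM on an axis that starts at 0 and differs between panels, with wild type in grey, mutant in orange and the mean and SD in black (n = 3). The groups lie far apart for Gucy1a3, Gucy1b3 and Pde7b, while Adcy5 and Rgs9 overlap and mutant replicate 3 of Pde10a reaches into the wild type range at 76.6 CPM.

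Phosphodiesterases of the striatum split in direction. Pde7b, a cAMP-specific enzyme (chromosome 10, 20398004 to 20725078, minus strand), was at 29.1, 33.2 and 34.3 CPM in wild type and at 3.05, 3.23 and 3.77 CPM in the mutant. It fell 9.61-fold (log2 fold change −3.26 ± 0.116, adjusted p = 1.79e-06), with every mutant library far under every wild type library. Pde2a, which cGMP activates and which hydrolyses both nucleotides, fell from 116.0, 129.6 and 123.9 CPM to 44.5, 55.1 and 53.6 CPM, a 2.41-fold change (adjusted p = 4.00e-05). The identifier of this row (ENSMUSG00000030653) is named Gm45837 in GENCODE M21, a protein-coding gene at chromosome 7, 101410886 to 101512819 on the plus strand. That annotation holds Pde2a as a separate gene that overlaps it on the same strand and has no row of its own here, so every value given for Pde2a is that of the row the deposited table names Pde2a. The row also shares exon bases with Arap1 on the same strand, which rose from 19.01 ± 1.42 to 24.7 ± 0.741 CPM (adjusted p = 0.0159). The opposite was seen for Pde1b, a calcium-activated enzyme of striatal neurons (chromosome 15, 103503034 to 103530052, plus strand). It was at 79.6, 77.7 and 83.7 CPM in wild type and rose to 129.8, 141.1 and 114.8 CPM in the mutant, 1.60-fold (log2 fold change 0.68 ± 0.092, adjusted p = 6.48e-04).

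Pde10a, the phosphodiesterase best known from striatal neurons (chromosome 17, 8525372 to 8986648, plus strand), was called lower, but on values that rest on single libraries. It was at 75.95, 112.5 and 95.7 CPM in wild type and at 40.1, 39.9 and 76.6 CPM in the mutant, so that mutant replicate 3 lay within the wild type range while replicates 1 and 2 lay below it. The log2 fold change was −0.86 ± 0.353 and adjusted p = 0.0475. The call was lost without wild type replicate 2 or 3 or mutant replicate 1 or 2, at adjusted p of 0.102 to 0.142, and with DESeq2's Wald test (adjusted p = 0.0692). Without mutant replicate 3 the log2 fold change was −1.25. Across the 10 alternatives adjusted p ran from 0.00267 to 0.142.

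Of the other cAMP-specific phosphodiesterases, 3 were lower, by 1.23-fold to 1.90-fold, and 3 were not called. Pde4b, the target of rolipram-type inhibitors together with its relatives, fell from 55.4 ± 4.46 to 29.1 ± 1.59 CPM, 1.90-fold (adjusted p = 1.29e-04). Pde7a, the relative of Pde7b, fell only 1.28-fold, from 189.0 ± 6.21 to 147.7 ± 9.30 CPM (adjusted p = 0.00336). Pde4d was called lower at 1.23-fold (adjusted p = 0.0371), but not without wild type replicate 1, 2 or 3 or mutant replicate 1 or 2, at adjusted p of 0.0547 to 0.112. Pde4a, Pde8a and Pde8b were not called, with log2 fold changes of −0.25, −0.46 and −0.36; Pde4a was called lower without wild type replicate 1 (−0.37, adjusted p = 0.0400). With Pde7b, 4 of the 7 tested cAMP-specific members were lower and 0 higher, beside 12.8% lower and 11.2% higher over all genes.

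Among enzymes that hydrolyse cGMP or both nucleotides, the rises were small. Pde9a, a cGMP-specific enzyme, rose from 37.9 ± 2.92 to 54.6 ± 1.27 CPM, 1.44-fold (adjusted p = 0.00158). Pde3b, which cGMP inhibits, rose 1.34-fold (adjusted p = 0.00960). Pde1c, a calcium-activated relative of Pde1b, rose 1.40-fold (adjusted p = 0.0135), a call that was lost without wild type replicate 2 or mutant replicate 2 (adjusted p = 0.0524 and 0.0501). Pde5a, the target of sildenafil, was at 45.3, 41.3 and 25.1 CPM in wild type and at 44.0, 82.6 and 47.2 CPM in the mutant, with mutant replicate 2 apart from the rest, and was not called (adjusted p = 0.145). Pde1a and Pde3a, at 3.40 ± 1.96 and 8.88 ± 3.99 CPM in wild type, and Pde6d, at 35.1 ± 1.002 and 35.9 ± 3.28 CPM, were not called. Pde6d binds prenyl groups of membrane proteins and is not itself a catalytic subunit.

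RGS genes held the only rise of at least 2-fold among the members. Rgs8, an R4-class protein that acts on inhibitory and Gq-type G proteins (chromosome 1, 153653025 to 153700323, plus strand), was at 77.7, 77.6 and 89.1 CPM in wild type and at 186.1, 181.4 and 178.0 CPM in the mutant. It rose 2.23-fold (log2 fold change 1.16 ± 0.069, adjusted p = 1.34e-05), and the groups were far apart. Rgs16, of the same class, lies 40.0 kb from Rgs8 in the same orientation (153740349 to 153745468) and rose as well, from 27.2, 24.1 and 21.3 CPM to 43.3, 48.4 and 43.5 CPM (1.87-fold, adjusted p = 4.85e-04). The pairs Gucy1a3 with Gucy1b3 and Rgs8 with Rgs16 are the only members within 1000 kb of each other that were both called. Both Rgs8 and Rgs16 share exon bases with an antisense gene that had too few reads to be tested. Rgs4 and Rgs5 lie 45.7 kb apart in opposite orientation. Rgs4 was at 14.4, 22.4 and 21.4 CPM against 13.5, 12.9 and 10.9 CPM, and passed the test narrowly (log2 fold change −0.65, adjusted p = 0.0282). Its call was lost with the replicate block (adjusted p = 0.0648) and without any single library except wild type replicate 1, at adjusted p of 0.0561 to 0.0969. Rgs5 was at 51.9 ± 3.54 and 45.6 ± 1.02 CPM (adjusted p = 0.0886) and was called lower without wild type replicate 1 (adjusted p = 0.0419).

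Members of the R7 class work as a complex with the G protein subunit Gnb5 and act on inhibitory G proteins. Of its 4 members, 3 were called lower, beside 12.8% of all genes. The striatal member, Rgs9, had a lower mean in the mutant but was not called. Rgs7 fell from 18.5, 19.4 and 19.9 CPM to 8.66, 8.42 and 7.42 CPM, 2.36-fold (adjusted p = 6.97e-05). Rgs11 fell from 3.25, 5.72 and 6.22 CPM to 0.975, 1.52 and 0.818 CPM (log2 fold change −2.21 ± 0.388, adjusted p = 0.00200). Rgs11 shares exon bases with Arhgdig on the opposite strand, which fell from 5.24 ± 0.919 to 1.97 ± 0.246 CPM, and reads of these genes cannot be told apart without a strand setting. Rgs6 was at 11.1, 25.1 and 25.7 CPM in wild type, where replicate 1 stood well below the others, and at 9.63, 8.29 and 6.98 CPM in the mutant (log2 fold change −1.33, adjusted p = 0.0142). Its call was lost without wild type replicate 2 (adjusted p = 0.0526) or mutant replicate 3 (adjusted p = 0.0550). Rgs9, whose long splice form is typical of striatal neurons, was at 15.02, 14.8 and 16.1 CPM in wild type and at 15.4, 10.1 and 11.9 CPM in the mutant. It was not called (log2 fold change −0.30 ± 0.179, adjusted p = 0.200), but was called lower without mutant replicate 1 (−0.48, adjusted p = 0.0387). Rgs7bp, which anchors this class to the membrane, was at 17.1 ± 3.36 and 14.2 ± 2.36 CPM and was not called (adjusted p = 0.284). Neither was Rgs9bp, at under 1 CPM.

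In the remaining RGS classes, Rgs17, an RZ-class protein that acts on inhibitory G proteins including Gz, fell from 58.1, 58.7 and 73.8 CPM to 21.9, 18.2 and 18.7 CPM (3.24-fold, adjusted p = 3.90e-05). Its relative Rgs19 fell 1.52-fold (adjusted p = 0.00187), and Rgs20 was at 10.9 ± 0.842 and 10.6 ± 0.925 CPM (adjusted p = 0.812). In the R12 class, Rgs10 fell from 7.56, 7.86 and 9.84 CPM to 4.15, 3.67 and 3.40 CPM (2.26-fold, adjusted p = 0.00142), while Rgs12 rose from 118.8 ± 1.29 to 140.5 ± 5.45 CPM, 1.18-fold (adjusted p = 0.00937). Rgs3 rose 1.45-fold (adjusted p = 0.0224), a call that was lost without wild type replicate 2 or 3 or mutant replicate 1 or 3 (adjusted p of 0.0659 to 0.0739). Rgs2, an R4-class protein that acts on Gq and is abundant in striatum, was at 93.3 ± 8.88 and 79.7 ± 5.15 CPM and was not called (adjusted p = 0.0851). Nor was Rgs22, at 0.622 ± 0.418 CPM in wild type.

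Set side by side, 8 of the 12 members listed for the striatum and 11 of the 15 listed as broadly expressed were called, beside 24.0% of all genes. No test of a difference between the lists was made, and the lists were drawn up with earlier results of these data known. Of the striatal list 6 were lower, 2 higher and 4 not called, with a median log2 fold change of −0.48 and a median size of 0.77. Of the broad list 7 were lower, 4 higher and 4 not called, with a median of −0.30 and a median size of 0.46. At least 2-fold changes were called in 5 of the 12 striatal members (Gucy1a3, Gucy1b3, Pde7b, Pde2a and, upward, Rgs8) and in 1 of the 15 broad ones (Rgs10), beside 6.88% of all genes. Of the 22 tested members on neither list, 9 were called. Among them, 5 were lower by at least 2-fold (Adcy1, Rgs6, Rgs7, Rgs11 and Rgs17) and 0 higher, so changes of this size were not limited to the striatal list. The 4 striatal members that were not called were Adcy5, Rgs2, Rgs7bp and Rgs9.

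**Figure D3:**
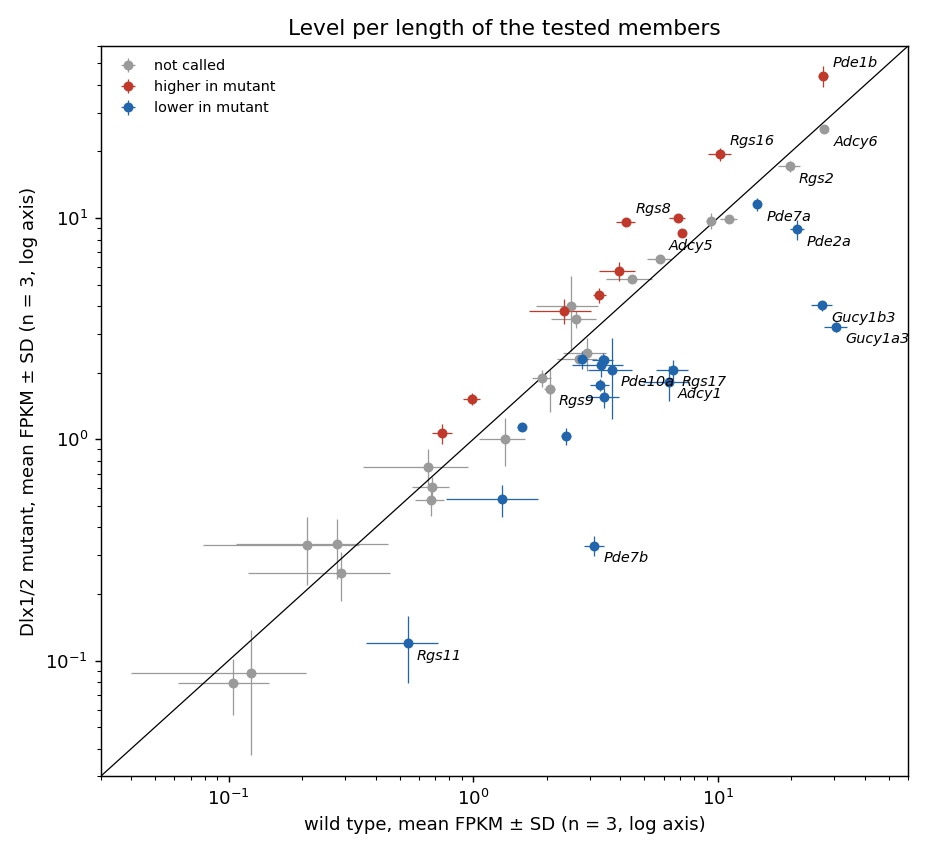
Mean FPKM, the level per length, of each tested member in wild type and mutant with SD (n = 3), on log axes. The line marks equal levels; Gucy1a3 and Gucy1b3 leave the top of the wild type order at 30.4 and 26.7 FPKM for 3.22 and 4.03 FPKM in the mutant, while Pde1b moves to the top at 43.9 FPKM.

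Per length, the order of the members changed at its top. In wild type the leading members were Gucy1a3 at 30.4 ± 3.32 FPKM, Adcy6 at 27.3 ± 1.02, Pde1b at 26.9 ± 1.17 and Gucy1b3 at 26.7 ± 2.68 FPKM, and neighbours among these did not differ beyond their spread. Pde2a followed at 21.1 ± 1.41 and Rgs2 at 19.7 ± 2.03 FPKM. In the mutant Pde1b led at 43.9 ± 4.68 FPKM, ahead of Adcy6 at 25.2 ± 0.585, Rgs16 at 19.4 ± 1.26 and Rgs2 at 17.1 ± 1.002 FPKM. Gucy1a3 and Gucy1b3 stood at places 20 and 16 of the 60. The sums of the phosphodiesterases and of the RGS proteins overlapped between the groups while the shares within them differed. The 19 catalytic phosphodiesterases summed to 94.7 ± 4.01 FPKM in wild type and 95.2 ± 6.65 in the mutant, and the 20 RGS proteins to 81.5 ± 4.21 and 84.0 ± 0.427 FPKM. Within the phosphodiesterases the share of Pde1b was 28.5% ± 1.02 in wild type and 45.98% ± 1.89 in the mutant, and that of Pde2a 22.3% ± 0.836 and 9.36% ± 1.12. Transmembrane adenylyl cyclases summed to 48.6 ± 2.09 and 43.2 ± 0.534 FPKM, and the share of Adcy1 was 12.9% ± 2.24 and 4.20% ± 0.697.

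**Figure D4:**
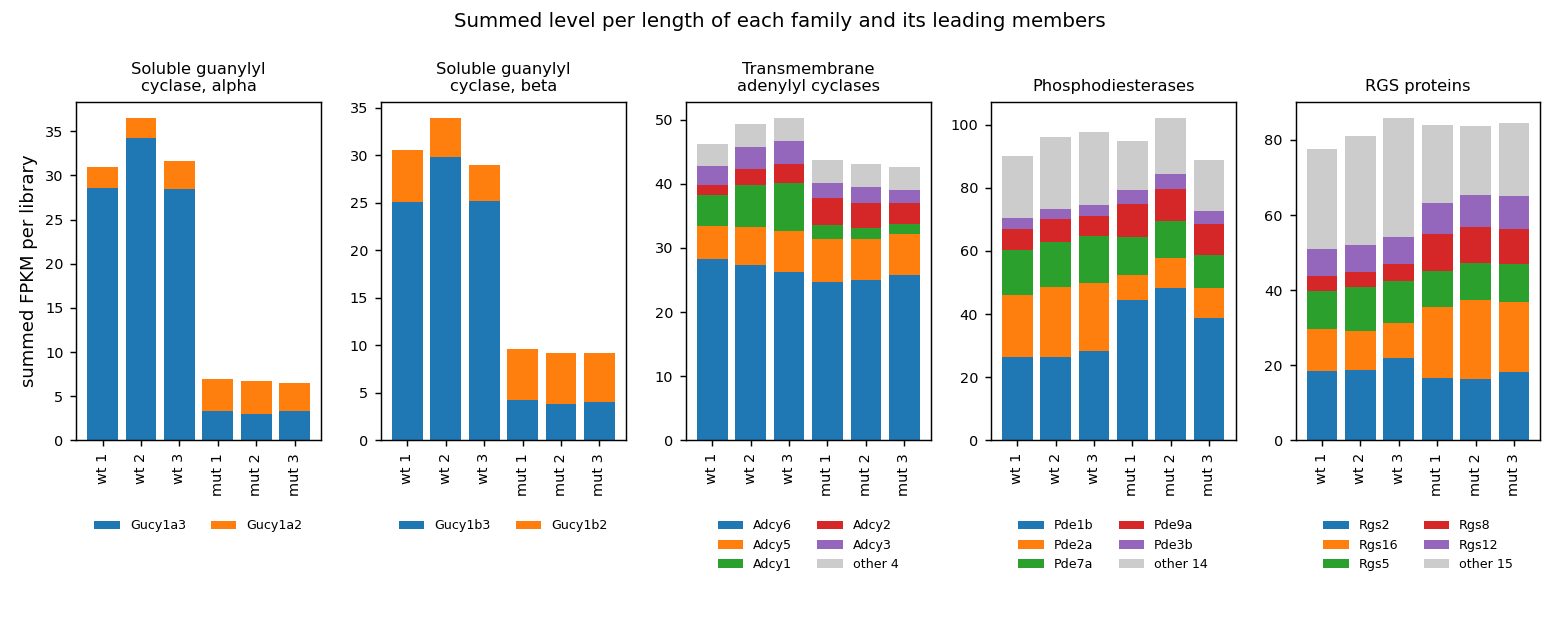
Summed FPKM of each family in each library, stacked by member, with the 5 members of highest share drawn apart and the rest in grey; the axes start at 0 and differ between panels. The alpha and beta subunits of soluble guanylyl cyclase fall to 6.71 and 9.36 FPKM on average, while the phosphodiesterase and RGS sums of the mutant libraries lie beside those of wild type.

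The genes that stand before and after these enzymes in the pathway changed unevenly. Of 12 tested G protein-coupled receptors of striatal neurons, 11 were lower and 0 higher, beside 12.8% and 11.2% of all genes. Drd1, Drd2 and Adora2a were among the 11, and log2 fold changes were as low as −5.09. The call of Oprk1 was lost under 2 of the 10 alternatives. Of 22 G protein subunits, 9 were lower and 1 higher, beside 12.8% and 11.2% of all genes. Of the 9 lower calls, that of Gnao1 was lost under 5 of the 10 alternatives, the replicate block among them, and those of Gnb2 and Gng10 under 2 each. Gnal, the stimulatory alpha subunit that couples striatal receptors to Adcy5, fell from 197.6 ± 20.7 to 30.1 ± 3.71 CPM (−2.71, adjusted p = 2.52e-06), and Gng7, its gamma subunit partner, from 69.1 ± 6.30 to 15.7 ± 6.95 CPM (−2.13, adjusted p = 0.00155). Some uncalled genes of these lists are named here and below for their role, chosen after their values were seen. Gnas, the widely expressed stimulatory alpha subunit, was at 576.0 ± 35.1 and 541.3 ± 6.28 CPM (adjusted p = 0.296), and Gnb5, the partner of the R7 class, at 13.4 ± 0.900 and 14.2 ± 0.452 CPM (adjusted p = 0.536). Gnaz, the alpha subunit on which Rgs17 acts, fell from 50.8 ± 4.58 to 28.3 ± 1.67 CPM (adjusted p = 3.07e-04).

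Of 23 effectors of cyclic nucleotides, 5 were lower, 1 higher and 17 not called, so that 26.1% were called, near the 24.0% over all genes. The falls were in the protein kinase A targets Ppp1r1b, which encodes DARPP-32 (20.8 ± 2.14 to 0.855 ± 0.216 CPM), and Arpp21 (51.2 ± 11.4 to 15.1 ± 1.43 CPM), in the cAMP-activated exchange factors Rapgef3 and Rapgef4, and in the cyclic nucleotide-gated channel Hcn2. The calls of Rapgef4 and Hcn2 were lost under 4 and 6 of the 10 alternatives. No catalytic or regulatory subunit gene of protein kinase A was called, from Prkaca at 135.2 ± 4.27 and 122.4 ± 3.27 CPM to Prkacb at 191.6 ± 62.1 and 286.3 ± 34.7 CPM (adjusted p = 0.0715 and 0.101), though Prkar1b was called lower when wild type replicate 1 was left out. A list of 5 further genes held nitric oxide synthases, which feed cGMP synthesis, and natriuretic peptide receptors, among them the clearance receptor Npr3, which makes no cGMP. In it 1 was called, beside 24.0% of all genes: Nos3, the endothelial nitric oxide synthase, fell from 9.90 ± 0.093 to 6.97 ± 0.494 CPM (adjusted p = 0.0124). The 8 endothelium markers looked at summed to 135.6 to 155.4 CPM in wild type and 131.4 to 137.8 CPM in the mutant. Of 7 tested, 1 was lower and 0 higher, and that call was lost under 7 of the 10 alternatives. The part of endothelial cells in the fall of Nos3 was not tested. Nos1, the neuronal nitric oxide synthase, was at 3.82 ± 1.73 and 4.11 ± 0.771 CPM and was not called (adjusted p = 0.912).

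Some members are also made by other cells of the tissue, and markers of these cells were read beside them. Over all genes tested, 11.2% were called higher and 12.8% lower, the shares to set beside the counts of each list. Pericytes make Rgs5, Gucy1a3 and Gucy1b3. The 11 markers of pericytes and smooth muscle summed to 224.8 to 234.4 CPM in wild type and 289.6 to 302.5 CPM in the mutant. That sum rests mainly on Notch3 and Pdgfrb, which were the 2 of 9 tested that were higher; 1 was lower (Abcc9, a call lost under 7 of the 10 alternatives), and the median log2 fold change of the list was −0.25. Kcnj8 and Cspg4, picked after their values were seen, were at 8.58 ± 1.18 and 6.06 ± 0.905 CPM and at 14.1 ± 1.20 and 13.8 ± 1.21 CPM and were not called, though Kcnj8 was called lower without wild type replicate 1. Acta2 and Myh11 had too few reads to be tested. The part of these cells in the falls of Gucy1a3 and Gucy1b3 was not tested. Microglia make Rgs10, which fell. The 11 markers of microglia and macrophages summed to 55.2 to 64.0 CPM in wild type and 70.0 to 82.1 CPM in the mutant. Of 10 tested, 1 was higher (Tyrobp, a call lost under 6 of the 10 alternatives), 0 were lower and 9 were not called. Cx3cr1 and C1qb were called higher under 3 and 2 of the alternatives. These genes were picked after their values were seen. The part of microglia in the fall of Rgs10 was not tested. Excitatory neurons of the pallium make Adcy1, Rgs4 and Rgs6. Their 10 markers summed to 29.7, 85.1 and 53.3 CPM in wild type replicates 1 to 3 and to 264.2, 207.9 and 170.6 CPM in the mutant. Of 8 tested, 6 were higher, among them Neurod2, Neurod6 and Bhlhe22, and 0 lower. Tbr1 and Eomes, picked after their values were seen, had lower means in the mutant, at 12.6 ± 7.08 and 6.91 ± 2.77 CPM and at 8.62 ± 5.14 and 4.34 ± 2.40 CPM, and were not called, though Tbr1 was called lower without wild type replicate 1. Emx1 and Slc17a7 had too few reads to be tested. Wild type replicate 1 was lowest of the wild type libraries in that sum and in all 3 members, and the part of these cells in the values was not tested. Among the other lists, 7 markers of hypothalamic and ventral neurons summed to 3.12 to 4.31 CPM in wild type and 588.1 to 658.3 CPM in the mutant. Of 6 tested, 5 were higher and 0 lower. The mutant sum rests mainly on Otp and Ebf3, at 445.8 ± 31.9 and 156.3 ± 55.5 CPM. The 11 markers of astrocytes and radial glia summed to 1764 to 1883 CPM and 2500 to 2761 CPM, with 7 of 11 higher and 0 lower. That sum rests mainly on Ptprz1 and Fabp7, of which Ptprz1 rose more in CPM. Ptprz1 was at 618.8 ± 33.9 and 1073 ± 35.4 CPM, and Fabp7 at 549.6 ± 23.5 and 653.0 ± 57.8 CPM. Of the 7, Slc1a2, Fabp7 and Aldoc lost their calls under 5, 4 and 3 of the 10 alternatives. The 4 not called were Aldh1l1, Slc1a3 and Aqp4, with lower means in the mutant, and Gfap, with a higher mean. Slc1a3 was called lower without mutant replicate 2, and Gfap higher without wild type replicate 2. These genes were named after their values were seen. The part of the cells of both lists in the members' values was not tested.

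The 11 members that could not be tested had 0 to 35 reads over the 3 wild type libraries and 2 to 32 over the 3 mutant libraries. Pde11a, which hydrolyses both nucleotides, had 35 and 16 reads with no overlap in CPM between the groups, Adcy10, the bicarbonate-activated soluble adenylyl cyclase, 16 and 32, and Pde4c 17 and 9. Rgs13, an RGS protein of lymphocytes and mast cells, had no read in wild type and 2, 9 and 7 reads in the mutant libraries, where 0 reads allow up to 0.181 to 0.287 CPM in a wild type library. It was called higher only when no filter on low counts was used (adjusted p = 0.0425), and DESeq2 gave it no adjusted p. Rgs1, Rgs14, Rgs18, Gucy2c, Gucy2e, Gucy2g and Pde6b had at most 14 reads in a group. Markers of photoreceptors, the cells known for Pde6b, Gucy2e and Gucy2f, summed to 2.01 to 2.90 CPM in wild type and 1.01 to 2.19 CPM in the mutant.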

How the data were processed

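RNA-seq of 3 wild type and 3 mutant LGE libraries was deposited as 1 gene table. The authors deposited whole-number read counts and FPKM per gene, per the file headers, and a p-value per gene whose test is not stated; all 28 called members, and 2 tested members that were not called, had a p-value below 0.05 in the authors' deposited table. HISAT2 2.0.4, StringTie 1.3.0, edgeR, GRCm38.p4 and mm10 are named, per the submitters' processing notes; the sources used here do not name the counter, annotation release or strand setting. The deposited FPKM were used for levels per length, ratios, shares and family sums, also between the groups. They were not scaled further between libraries, and no test was run on them.

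Columns were matched to samples by library name. The test was run in edgeR 4.0.16 (R 4.3.3): filterByExpr by group (15326 genes kept), TMM scaling, quasi-likelihood F test, two-sided, Benjamini-Hochberg adjustment over all genes, threshold 0.05. The SE of a log2 fold change is the spread of log2 CPM with 0.5 added to each count. A value of 3 counts is 0.181 to 0.287 CPM in a library, which covers counting error only. On simulated counts for 15326 genes of this comparison, 98% of 2-fold and 100% of 4-fold changes were recovered, and 9 unchanged genes were called. Only a set of genes with higher counts was changed, and every gene was given the same dispersion. The rates therefore do not cover members with few reads or a wide spread between libraries. Alternatives were a replicate block, RLE scaling, no filter on low counts, DESeq2 1.42.0, a 2-fold minimum and leaving out each library in turn. Positions are from GENCODE M21 on GRCm38. The rule for named genes allowed every member, the called genes of the pathway lists, the markers of highest level or at 0, and Dlx1 and Dlx2; genes named outside it are marked in the text. The members and lists were chosen with earlier results of these data known. Values of some genes of the pathway lists are not reported here.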

Additional observations from a re-analysis of the deposited data

How the results depend on the processing

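Each of the 49 tested members was recomputed under 10 alternatives, 490 values in all, of which 449 kept direction and side of the threshold, 30 lost a call, 5 gained one and 6 changed sign. Of the 28 called members, 21 kept their call in all 10, and 7 (Adcy2, Pde10a, Pde1c, Pde4d, Rgs3, Rgs4 and Rgs6) lost it in at least 1; none of the 28 changed sign. The sign changes were in uncalled members when a library was left out: log2 fold changes ran from −0.118 to 0.888 for Adcy8, −0.531 to 0.311 for Pde1a, −0.078 to 0.572 for Pde3a, −0.014 to 0.107 for Pde6d and −0.106 to 0.020 for Rgs20. Without 1 library, 14 to 19 members were lower and 7 to 10 higher. With the 2-fold minimum, 10 were lower and 1 higher. The labels do not say whether the replicate numbers pair the libraries. Deviations of same-numbered libraries from their group means correlated at −0.285, 0.0935 and −0.323, and no library correlated best with the one of its own number. Deviations of 3 libraries from their own mean depend on each other, so these values cannot decide whether the libraries were paired. With the replicate block 17 members were lower and 9 higher, and 2681 genes were called in place of 3673. No filter gave 18 and 11, RLE scaling 18 and 10, and DESeq2 17 and 10. Depth limits the 11 untested members, with at most 35 reads in a group.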
